A study of Mus musculus with 13 samples.

Results

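Endoderm regulators and markers were followed in differentiating female mouse embryonic stem cells (mESCs) by RNA-seq. The set held 9 genes of the 25965 in the table, chosen by symbol: Sox17, Gata6, Gata4, Foxa2, Sox7, Hnf4a, Dab2, Cxcr4 and Afp. The cells were FVB/CAST F1 hybrids with an FVB/NJ mother and a CAST/EiJ father, expanded in 2i (medium with MEK and GSK3 inhibitors) and weaned into serum-containing DME HiHi medium, in which they differentiate. The Day0 library came from undifferentiated cells, before any virus. Cells of the other 12 libraries were transduced with a virus carrying an shRNA on day 2 and selected with puromycin from day 3. They carried a nonsilencing hairpin (Nons) or 1 of a pair of hairpins against Smarcc1 (Smarcc1.6 and Smarcc1.7), and each of these 3 groups had 1 library on each of days 4, 5, 6 and 7. Smarcc1 encodes BAF155, a core subunit of the BAF chromatin remodelling complex. With 1 library per group and day, the days stood in for replicates. The comparisons with Nons hold a term for each day, so their p-values measure how far the differences vary across days. In the pooled knockdown fit they also measure the gap between the hairpins, which share 1 Nons library on each day. P-values for change per day measure the spread around a straight line. That fit holds no term for each day, so libraries of the same day count as independent points. These p-values can therefore be too small, for the members and for all genes. The labels do not say whether the libraries came from 1 line or several.

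Endoderm arises more than once in the mouse embryo. Primitive endoderm segregates from the inner cell mass under GATA and SOX factors and gives rise to visceral endoderm, which secretes serum proteins, and to parietal endoderm, which lays down basement membrane. Definitive endoderm leaves the primitive streak under Nodal signalling, through cells that express Eomes and Foxa2, and goes on to form the gut, liver and pancreas. Sox17, Gata4, Gata6 and Foxa2 act in both lineages, so these genes alone do not tell them apart in bulk RNA.

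The sequences of the hairpins are shown because every knockdown comparison rests on them, with the guide seed (bases 2 to 8) in capitals. The Smarcc1.6 guide pairs with chr9:110177472-110177493 (mm10, plus strand) in exon 13 of Smarcc1, and the Smarcc1.7 guide with chr9:110173911-110173932 in exon 11. Both sites lie in coding sequence of transcript Smarcc1-201 and matched over 22 of 22 bases.
Smarcc1.6 guide: tGTAACTGcttcttcatcctgc
Smarcc1.6 target: gcaggatgaagaagcagttaca
Smarcc1.7 guide: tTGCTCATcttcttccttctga
Smarcc1.7 target: tcagaaggaagaagatgagcaa

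Promoter sequence is shown for Foxa2, Hnf4a and Cxcr4, whose differences from Nons are described at length. Each stretch is RefSeq sequence (GRCm38.p6) on the strand of the gene, from upstream of its first annotated base, and capitals mark the letters TGTTTGC or TATAAA.
Foxa2, chr2:148046970-148047219 (minus strand): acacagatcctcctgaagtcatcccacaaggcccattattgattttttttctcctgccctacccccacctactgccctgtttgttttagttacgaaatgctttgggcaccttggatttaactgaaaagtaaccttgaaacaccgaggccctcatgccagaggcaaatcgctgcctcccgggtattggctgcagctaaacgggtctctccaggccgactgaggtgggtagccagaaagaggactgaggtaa
Hnf4a, chr2:163506607-163506807 (plus strand): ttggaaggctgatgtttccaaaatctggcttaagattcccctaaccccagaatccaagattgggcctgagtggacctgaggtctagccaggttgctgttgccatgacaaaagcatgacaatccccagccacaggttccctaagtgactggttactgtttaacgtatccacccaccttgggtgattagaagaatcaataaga
Cxcr4, chr1:128592300-128592549 (minus strand): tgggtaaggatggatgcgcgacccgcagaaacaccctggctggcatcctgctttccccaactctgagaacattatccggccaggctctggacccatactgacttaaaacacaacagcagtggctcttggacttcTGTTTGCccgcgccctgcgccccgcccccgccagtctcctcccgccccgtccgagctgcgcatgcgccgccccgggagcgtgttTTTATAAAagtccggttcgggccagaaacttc
The stretches were searched on both strands. Letters read by forkhead factors were taken as TGTTTAC, or in another form of this site as TGTTTGC. Those read by zinc-finger factors such as Gata4 were taken as AGATAA, or in a variant form as TGATAA. Those read by SRY-box factors were taken as ATTGTT and those read by Hnf4a as CAAAGTCCA. The core promoter box was taken as TATAAA. The Cxcr4 stretch held 1 forkhead match and 2 overlapping matches to the core promoter box, and the Foxa2 and Hnf4a stretches held none of the 5. RefSeq also gives promoter windows inside Foxa2 and Hnf4a, which are not printed. Of these, the Foxa2 window from chr2:148045415 held AGATAA and TATAAA, and the others held none of the 5. Of 32851 RefSeq windows of 250 bases, 7.29% held the forkhead letters, 16.6% the zinc-finger letters, 9.42% the SRY-box letters, 0.384% the Hnf4a letters and 12.4% the core promoter box. The Hnf4a stretch had 201 bases and is shorter than these windows. An AGATAA match runs across the end of the Hnf4a stretch into annotated sequence. A match is a description of letters, not a binding site.

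Levels are given as log2 CPM (mapped read counts scaled to a common library size), the deposited unit, in which 1 unit is a doubling. The shallowest library, Smarcc1.7 of day 5, had 13993440 mapped reads, and the deepest, Smarcc1.6 of day 4, had 63548092. The libraries fell into separate sets by the share of reads in genes, which was 85.3 to 86.5% in Day0 and the 3 day 6 libraries and 91.6 to 92.6% in the other 9. Of 13406 genes tested, 559 (4.17%) stood at least 1 log2 unit off the mean of days 5 and 7 on day 6, in the same direction in all 3 groups, and 0 of these were members. Values without day 6 are given below where they change a call of knockdown against Nons or of change per day. Day0 is a single library of the lower set, so each comparison of days 4, 5 or 7 with Day0 crosses between the sets. Smarcc1 itself stood at a log2 CPM of 8.01 in Day0 and of 9.10, 8.87, 8.28 and 7.89 in Nons on days 4 to 7. Its levels were 7.42, 7.40, 7.28 and 7.28 with Smarcc1.6 and 7.96, 7.78, 7.17 and 7.51 with Smarcc1.7, below Nons in 8 of 8 same-day pairs. The fitted fall was 1.19 ± 0.15 (SE) log2 units for Smarcc1.6 (limma, adjusted p = 0.00198) and 0.93 ± 0.15 for Smarcc1.7 (adjusted p = 0.0187). The gap was narrowest on day 7, at -0.61 and -0.38.

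Read counts behind the members were low, and this limits what can be said. Per kilobase of exon, the only scale on which different genes may be ranked, the median level over the 12 libraries was highest for Dab2 at 2.70 CPM per kb. Cxcr4 followed at 0.677, Gata4 at 0.501, Sox17 at 0.337, Foxa2 at 0.239, Sox7 at 0.236, Gata6 at 0.228, Hnf4a at 0.164 and Afp at 0.0460. The ranges over libraries overlapped for every pair of neighbours in this order, for example 0.568 to 6.74 CPM per kb for Dab2 and 0.237 to 5.59 for Cxcr4. Tests were fitted across genes whose log2 CPM averaged 0 or more, a filter that 5 members passed (Sox17, Gata6, Gata4, Dab2 and Cxcr4) and 4 did not (Foxa2, Sox7, Hnf4a and Afp). For these 4 the p-values come from the same model fitted without that filter, on all 25965 genes.

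In this bulk RNA, fewer cells of a type and less RNA per cell cannot be told apart. Sox17 and Foxa2 were lower after Smarcc1 knockdown, and Hnf4a was higher. Sox17 fell in the filtered fit, as 1 of 5 tested members, where 11.6% of genes past the filter were called. Foxa2 fell and Hnf4a rose in the unfiltered fit, where 6.31% of all genes were called and Sox17 was called too. That share, 1639 of 25965 genes, depends on the handling of low reads. The count was 317 with log2(CPM + 1), 176 with reads thinned to the smallest depth and 284 without the variance trend. It was 1435 with voom weights and 1682 with median of ratios scaling. Gata6, Gata4, Sox7, Dab2, Cxcr4 and Afp were not called. Between the hairpins 0 members were called by limma, as were 0% of the 13406 genes, with 530 genes at an unadjusted p under 0.05.

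**Figure D1:**
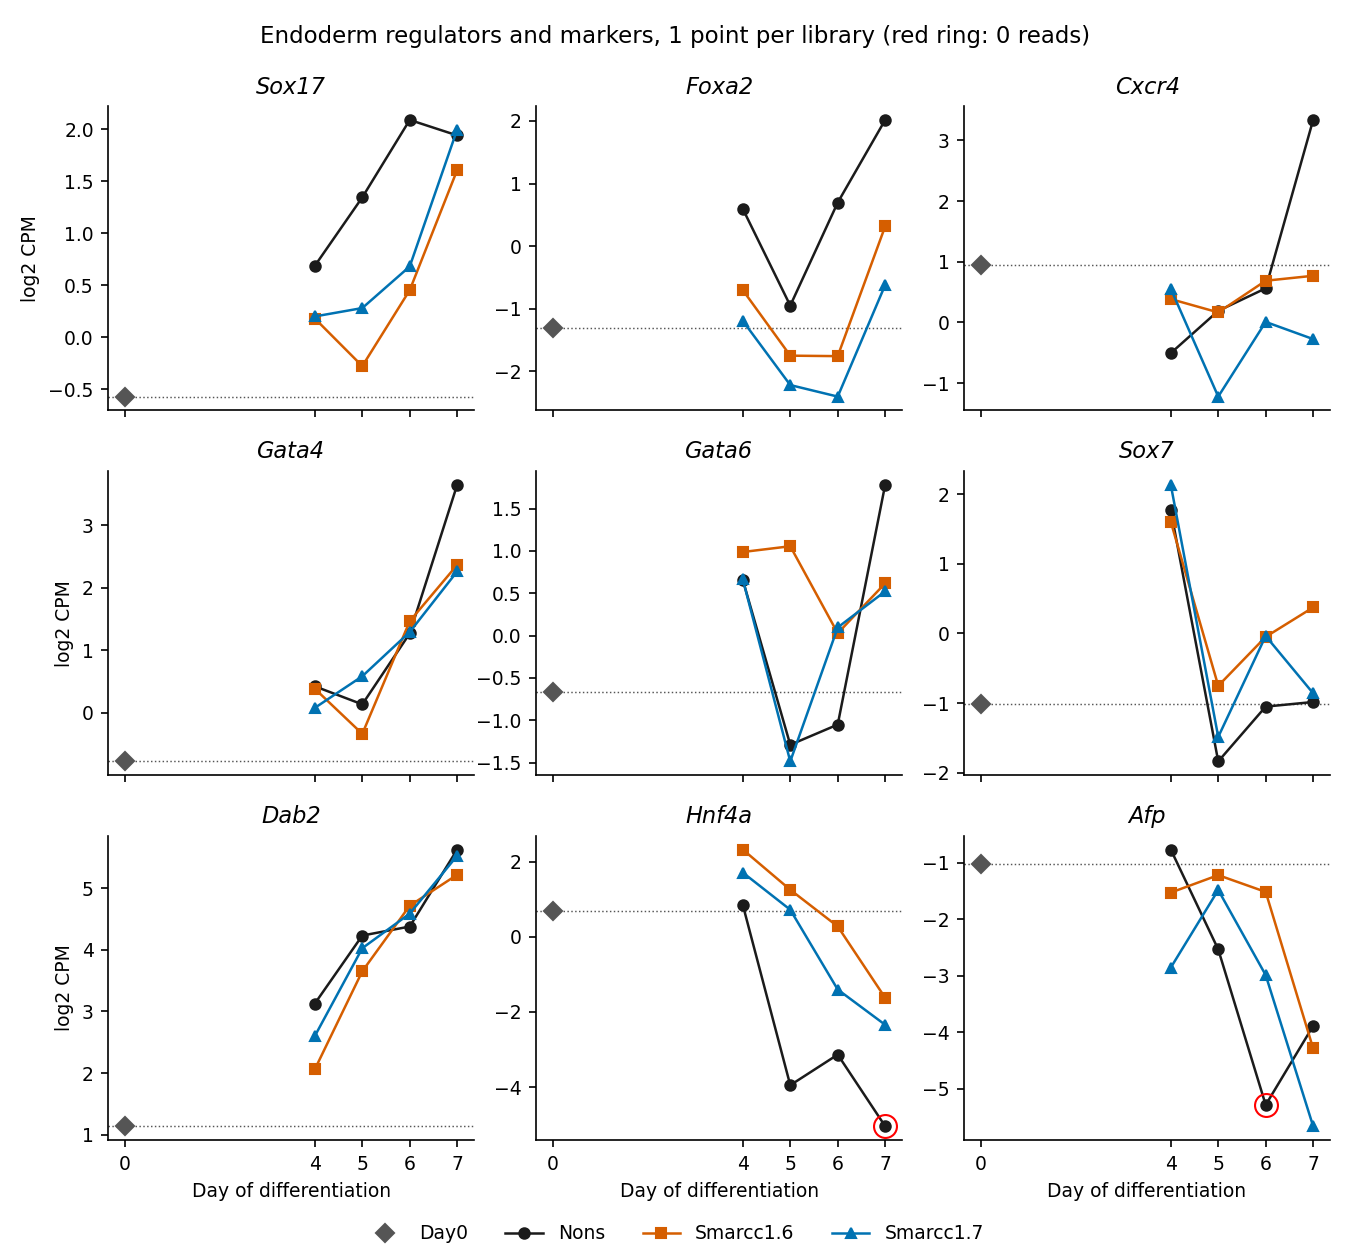
Log2 CPM (vertical axis) of the 9 members by day of differentiation (horizontal axis) in Day0 (diamond and dotted line), Nons (circles), Smarcc1.6 (squares) and Smarcc1.7 (triangles), with 1 point per library and no error bars. Foxa2 lies above both hairpins in Nons on all 4 days and Hnf4a below them, and Cxcr4 stands at 3.34 in the Nons library of day 7. Red rings mark libraries with 0 reads.

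Sox17 (chr1:4490928-4496413 in mm10, minus strand) encodes an HMG-box factor required for endoderm formation. It stood at -0.57 in Day0, where it had 15 reads. In Nons it was at 0.69, 1.35, 2.09 and 1.94 on days 4 to 7, against 0.18, -0.28, 0.45 and 1.61 with Smarcc1.6 and 0.20, 0.28, 0.68 and 2.00 with Smarcc1.7. Nons was above both hairpins on days 4, 5 and 6, and by day 7 the Smarcc1.7 library had reached it. Sox17 was first at least 1 log2 unit above Day0, with at least 10 reads and on every later day, on day 4 in Nons and on day 6 with either hairpin (day 7 when day 6 was set aside).

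Over the 4 days Sox17 fell by 0.88 ± 0.24 (SE) log2 units with knockdown (limma, adjusted p = 0.0369) and was lower in 7 of 8 same-day pairs. The widest gaps were on day 6, at -1.64 for Smarcc1.6 and -1.41 for Smarcc1.7, and on day 5, at -1.62 and -1.07. Each hairpin was compared with Nons in a fit of all 3 groups, whose 12 libraries share 1 estimate of the spread. There Smarcc1.6 passed (-1.03 ± 0.27, adjusted p = 0.0423, where 9.30% of genes past the filter were called) and Smarcc1.7 did not (-0.73 ± 0.27, adjusted p = 0.166, 2.45% called). With only the Smarcc1.6 and Nons libraries fitted, no member past the filter was called. The difference between the hairpins was -0.30, with a 95% interval of -0.90 to 0.31. Of 16 fits that each left out 1 library or 1 day, 5 called Sox17 with knockdown (without Nons day 4, Nons day 7, Smarcc1.7 day 7, day 4 or day 7), with adjusted p from 0.0157 to 0.219. Without the day 6 libraries the fall was 0.66 (adjusted p = 0.219), and with voom weights it was 0.77 (adjusted p = 0.0509).

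Foxa2 (chr2:148042877-148046969, minus strand) encodes a forkhead pioneer factor of the node, floor plate and definitive endoderm. Its Day0 level was -1.31, from 9 reads. In Nons it was at 0.59, -0.95, 0.70 and 2.02 on days 4 to 7, from 90, 24, 57 and 120 reads. With Smarcc1.6 it was at -0.70, -1.75, -1.76 and 0.32, from 39, 9, 11 and 73 reads, and with Smarcc1.7 at -1.20, -2.22, -2.41 and -0.62, from 19, 3, 6 and 33 reads. Every hairpin library was below the Nons library of its day, and in each group day 7 held the highest level of the series. Foxa2 reached 1 log2 unit above Day0 for good on day 6 in Nons (day 7 without day 6) and on day 7 with Smarcc1.6, and did not reach it with Smarcc1.7.

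Knockdown lowered Foxa2 by 1.88 ± 0.37 (SE) log2 units in the unfiltered fit (limma, adjusted p = 0.00613), which is 0.271 of the Nons level. The falls were 1.56 ± 0.41 for Smarcc1.6 (adjusted p = 0.0354, 5.83% of all genes called) and 2.20 ± 0.41 for Smarcc1.7 (adjusted p = 0.0157, 1.87% called). It was lower in 8 of 8 same-day pairs, and the pairs of a day share 1 Nons library. Such same-sign differences were held by 2 of 9 members (Foxa2 and Hnf4a) and 9.80% of all genes, and by 0 of 5 members and 15.0% of genes past the filter. On day 7 the CPM ratio to Nons was 0.308 (95% counting interval 0.227 to 0.415) for Smarcc1.6 and 0.161 (0.106 to 0.238) for Smarcc1.7. Day 6 gave ratios of 0.182 (0.0862 to 0.351) and 0.117 (0.0411 to 0.270). The call held in 16 of 16 fits that left out 1 library or 1 day (adjusted p 0.00606 to 0.0485). It was lost with log2(CPM + 1) (adjusted p = 0.0561), with reads thinned to the smallest depth (0.0535), with Smarcc1.6 and Nons only (0.0703), without day 6 and Smarcc1.7 day 5 together (0.0887) and without day as a factor (0.991).

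Cxcr4 (chr1:128588199-128592293, minus strand) encodes the receptor of the chemokine CXCL12 and is used to sort definitive endoderm, though mesoderm carries it too. It stood at 0.95 in Day0. In Nons it was at -0.51, 0.19, 0.56 and 3.34 on days 4 to 7, against 0.39, 0.17, 0.69 and 0.77 with Smarcc1.6 and 0.56, -1.22, 0.01 and -0.27 with Smarcc1.7. The day 7 Nons library, with 300 reads, stood above all the others, and both hairpins were above Nons on day 4. Cxcr4 reached 1 log2 unit above Day0 for good on day 7 in Nons and did not reach it with either hairpin. On day 7 the CPM ratio to Nons was 0.169 (0.133 to 0.212) for Smarcc1.6 and 0.0818 (0.0577 to 0.113) for Smarcc1.7.

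The average knockdown difference of Cxcr4 was -0.76 ± 0.52 (SE) and did not pass (limma, adjusted p = 0.372). The change of that difference per day was -1.17 ± 0.32 log2 units (adjusted p = 0.0664), in a test that called 3.75% of genes past the filter. This value rests on 1 library: without Nons day 7 it was -0.60 (adjusted p = 0.602). It passed with log2(CPM + 1) (adjusted p = 0.0398), with voom weights (0.0269) and in 3 of 16 fits with a library or day left out (day 6, Nons day 6 or Smarcc1.7 day 5).

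Gata4 (chr14:63198922-63271692, minus strand) encodes a zinc-finger factor of extraembryonic endoderm and heart. From -0.78 in Day0 it went to 0.42, 0.14, 1.27 and 3.65 in Nons on days 4 to 7. The Smarcc1.6 libraries stood at 0.39, -0.34, 1.47 and 2.37 and those of Smarcc1.7 at 0.08, 0.59, 1.29 and 2.26. All groups were at their highest on day 7, where Nons was above both hairpins by 1.28 and 1.39 log2 units, while on days 4 to 6 the differences ran both ways. At least 1 log2 unit above Day0 was reached for good on day 6 in Nons and Smarcc1.6 (day 7 without day 6) and on day 5 with Smarcc1.7. The average knockdown difference was -0.36 ± 0.25 (SE; limma, adjusted p = 0.384).

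Gata6 (chr18:11052510-11085635, plus strand) encodes the factor that sets primitive endoderm apart from epiblast. It was at -0.67 in Day0 and at 0.66, -1.29, -1.05 and 1.78 in Nons on days 4 to 7. Smarcc1.6 libraries stood at 0.99, 1.06, 0.03 and 0.62, and Smarcc1.7 libraries at 0.66, -1.48, 0.10 and 0.52. Nons was below both hairpins on day 6 and above both on day 7, so the groups crossed. Day 7 was the first day that all 3 groups were 1 log2 unit above Day0 for good (day 4 for Smarcc1.6 without day 6). Neither the average difference (0.29 ± 0.46 SE, limma, adjusted p = 0.729) nor its change per day (-0.41 ± 0.39, adjusted p = 0.631) passed.

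Sox7 (chr14:63943674-63950732, plus strand), an SRY-box factor of parietal endoderm and endothelium, peaked early. Against -1.02 in Day0, it stood on day 4 at 1.77 in Nons, 1.6 with Smarcc1.6 and 2.13 with Smarcc1.7. On days 5, 6 and 7 it was at -1.84, -1.05 and -0.98 in Nons, -0.75, -0.05 and 0.37 with Smarcc1.6 and -1.48, -0.04 and -0.86 with Smarcc1.7. In each group day 4 was the highest and day 5 the lowest, a step of -3.60, -2.35 and -3.62 log2 units. The day 4 level was not kept, and only Smarcc1.6 was 1 log2 unit above Day0 for good, on day 7. The hairpin libraries were higher in 7 of 8 same-day pairs, but the difference of 0.64 ± 0.31 (SE) did not pass (limma without the filter, adjusted p = 0.291).

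Dab2 (chr15:6299788-6440712, plus strand) encodes an endocytic adaptor that visceral and parietal endoderm express strongly. It was the most read member, at 1.14 in Day0 and at 3.13, 4.23, 4.38 and 5.63 in Nons on days 4 to 7. Levels were 2.06, 3.65, 4.72 and 5.22 with Smarcc1.6 and 2.60, 4.03, 4.59 and 5.53 with Smarcc1.7. Each group was higher at every step and stood on day 7 at 22.5, 16.9 and 21 times the Day0 level. At least 1 log2 unit above Day0 was reached on day 4 in Nons and Smarcc1.7 and on day 5 with Smarcc1.6. On day 4 both hairpins were below Nons, by 1.07 and 0.53 log2 units. Over the 4 days the knockdown difference was -0.29 ± 0.16 (SE; limma, adjusted p = 0.259).

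Hnf4a (chr2:163506808-163572910, plus strand) encodes a nuclear receptor of visceral endoderm, liver and gut. It was already read in Day0, at 0.69 from 36 reads. In Nons it was at 0.84 on day 4, from 107 reads, and then at -3.95, -3.14 and -5.04 on days 5 to 7, from 3, 4 and 0 reads. The Smarcc1.6 libraries held 317, 72, 45 and 19 reads, at 2.32, 1.25, 0.27 and -1.63, and the Smarcc1.7 libraries 142, 23, 12 and 10 reads, at 1.71, 0.72, -1.41 and -2.34. All groups fell after day 4, and on every day both hairpins were above Nons. Hnf4a overlaps its antisense gene Hnf4aos over 34913 bases, and with the strand setting not given the reads of both cannot be told apart. The fall between days 4 and 5 was 4.8 log2 units in Nons against 1.07 and 0.99 with the hairpins.

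Hnf4a rose by 2.93 ± 0.51 (SE) log2 units with knockdown in the unfiltered fit (limma, adjusted p = 0.00281), by 3.38 ± 0.56 for Smarcc1.6 (adjusted p = 0.00259) and by 2.49 ± 0.56 for Smarcc1.7 (adjusted p = 0.0358). On day 4, where reads were plentiful, the CPM ratio to Nons was 2.78 (95% counting interval 2.23 to 3.49) and 1.82 (1.40 to 2.36). On day 5 it was 36.8 (12.1 to 182) and 25.4 (7.68 to 132), and on day 6 10.6 (3.88 to 40.7) and 3.32 (1.01 to 14.1). On day 7, against a floor of 3 reads in the Nons library and with the hairpin reads taken as exact, it was at least 3.20-fold higher for Smarcc1.6 and at least 1.95-fold higher for Smarcc1.7. The counting interval, which allows for error in both libraries, began at 2.36 and 1.31. The fitted size depends on the 0.9 reads written for 0: with log2(CPM + 1) the rise was 0.83 (adjusted p = 0.0920). The call held in 16 of 16 fits with a library or day left out (adjusted p 0.000286 to 0.0452) and was lost with thinned reads (0.0574), without the variance trend (0.0515) and without day as a factor (0.991).

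Afp (chr5:90490714-90508907, plus strand), the fetal serum protein of yolk sac and liver, was hardly read. It had 11 reads in Day0 and 35, 8, 0 and 2 in Nons on days 4 to 7. The Smarcc1.6 libraries held 22, 13, 13 and 3 reads and the Smarcc1.7 libraries 6, 5, 4 and 1. Hairpin libraries were above Nons in 4 of 8 same-day pairs and below in 4, and the fitted difference was 0.43 ± 0.66 (SE; limma without the filter, adjusted p = 0.851). The counting interval of the CPM ratio excluded 1 in 2 pairs, in opposite directions. They were Smarcc1.6 on day 6, higher with 13 reads against 0, and Smarcc1.7 on day 4, lower at a ratio of 0.235 (0.0807 to 0.564).

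**Figure D2:**
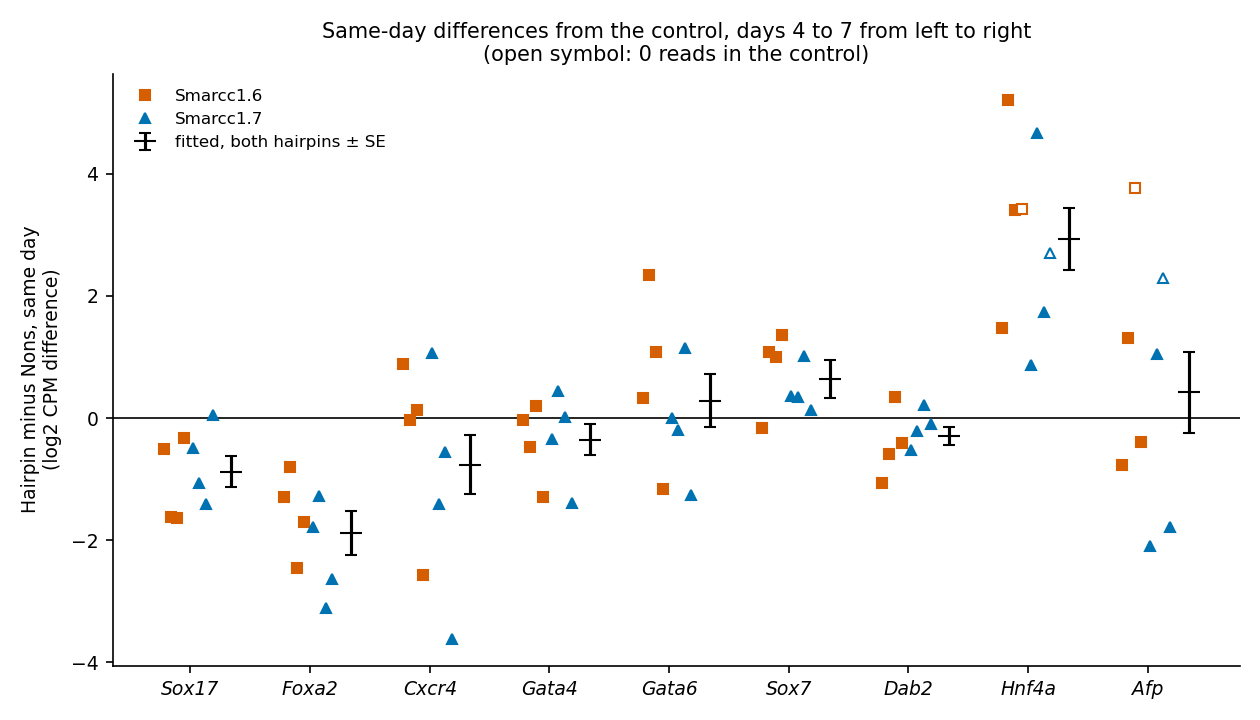
Hairpin minus Nons in log2 CPM (vertical axis) for each member, Smarcc1.6 (squares) and Smarcc1.7 (triangles) on days 4 to 7 from left to right, with the fitted difference of both hairpins ± SE from the unfiltered fit (bars). The 8 points of Foxa2 lie between -3.10 and -0.80 and those of Hnf4a between 0.86 and 5.20, and the other members have points on both sides of 0. Open symbols have 0 reads in Nons.

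Over days 4 to 7, with group as a covariate, Dab2 rose by 0.92 ± 0.08 (SE) log2 units per day (limma, adjusted p = 6.39e-06), Gata4 by 0.86 ± 0.16 (0.000786) and Sox17 by 0.51 ± 0.11 (0.00199). These were 3 of 5 tested members, while 60.5% of genes past the filter were called per day. Both counts come from the fit that treats libraries of the same day as independent. Cxcr4 (0.41 ± 0.23, adjusted p = 0.151) and Gata6 (0.09 ± 0.26, adjusted p = 0.786) were not called. In the unfiltered fit, where 38.8% of all genes were called, Hnf4a fell by 1.46 ± 0.22 per day (adjusted p = 0.000215) and Afp by 1.02 ± 0.29 (0.0126). Foxa2 (0.35 ± 0.24, 0.301) and Sox7 (-0.60 ± 0.28, 0.118) did not pass. Without day 7 the rises of Gata4 (0.52, adjusted p = 0.0555) and Sox17 (0.36, adjusted p = 0.0705) and the fall of Afp (0.77, adjusted p = 0.237) lost their calls.

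The members differed in time course. Sox17, Gata4 and Dab2 were highest on days 6 or 7 in all groups, Sox7 on day 4, and Hnf4a on day 4 in all groups. From day 4 to day 5 Foxa2, Sox7 and Hnf4a stepped down in each of the 3 groups, and Gata6 stepped down by 1.95 in Nons and 2.15 with Smarcc1.7 but not with Smarcc1.6 (0.07). In the test of whether the knockdown difference changed over the days, no member was called.

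The genes whose log2 CPM followed each filtered member most closely, among 13405 others over the 12 libraries, are given as a description, since the libraries share days and groups. For Sox17 they were Cdk6 (Pearson r = 0.983), Man1a (0.979) and Pmepa1 (0.961), and for Gata4 Maged2 (0.969), Gpc2 (0.966) and Dlg1 (0.964). For Dab2 they were Tap1 (0.988), 2310022B05Rik (0.988) and Tapbp (0.984). Cxcr4 (Plekhg3 0.855, Car2 0.853, Ndc80 0.842) and Gata6 (BC006779 0.873, Lgals8 0.860, Catsper2 0.832) had looser neighbours.

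Among inducers of endoderm and mesendoderm genes, 3 of 6 tested fell with knockdown and 0 rose, beside 11.6% of genes past the filter called. The median was -0.48 against -0.01 over all genes tested. T, the brachyury factor of the primitive streak, fell by 2.50 ± 0.67 (SE) log2 units (limma, adjusted p = 0.0341). In Nons it was at 0.97, 2.62, 5.03 and 7.49 on days 4 to 7, against 1.28, 1.27, 0.87 and 4.19 with Smarcc1.6 and 1.02, 1.48, 0.10 and 2.04 with Smarcc1.7. Nons was below both hairpins on day 4 and above both from day 5. Eomes, a T-box factor upstream of definitive endoderm, fell by 0.92 ± 0.26 (adjusted p = 0.0440), and Foxh1, the partner of SMAD proteins in Nodal signalling, by 0.34 ± 0.09 (adjusted p = 0.0368). In the comparison of Smarcc1.6 with Nons, Foxh1 was called (limma, adjusted p = 0.0491), and T (0.116) and Eomes (0.133) were not. Without day 6 none of the 3 was called with knockdown, when 287 of 13406 genes were called in place of 1561. Over the days T rose by 1.07 ± 0.32 per day (adjusted p = 0.0154) and Gsc, an organizer homeobox gene, by 0.71 ± 0.17 (0.00475). These were 2 of 6 tested, beside 60.5% of genes past the filter.

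Of the definitive endoderm and gut list 0 of 5 tested genes were called with knockdown (median -0.35), beside 11.6% of genes past the filter. In the comparison of Smarcc1.6 with Nons, Cldn6, a tight junction protein of embryonic epithelia, fell by 0.89 ± 0.23 (SE; limma, adjusted p = 0.0389). Cldn6 rose by 1.61 ± 0.20 per day (adjusted p = 7.06e-05) and Foxa3, a forkhead factor of gut and liver, by 0.66 ± 0.12 (0.000894), while Trh, a neuropeptide precursor, fell by 0.61 ± 0.16 (0.00788). These were 3 of 5 tested, beside 60.5% of genes past the filter. Other listed genes, among them Foxa1, Cer1 and Shh, were below the filter.

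Of the visceral endoderm and yolk sac list 2 of 8 tested genes rose with knockdown and 0 fell (median 0.31), beside 11.6% of genes past the filter. Cubn, the endocytic receptor cubilin, rose by 1.56 ± 0.36 (SE; limma, adjusted p = 0.0197) and Otx2, a homeobox gene that epiblast expresses too, by 0.61 ± 0.14 (adjusted p = 0.0167). Cubn was at 2.82, 0.46, 0.07 and 0.15 in Nons on days 4 to 7, against 2.87, 3.08, 2.55 and 2.79 with Smarcc1.6 and 2.62, 2.19, 1.5 and 1.91 with Smarcc1.7. On day 4 the groups lay close together, and from day 5 both hairpins were above Nons. Without day 6 neither was called. Per day 6 of 8 were called, near the 60.5% of genes past the filter. Of these 2 rose (Lrp2 by 0.69 ± 0.09, adjusted p = 7.61e-05, and Cited1 by 0.66 ± 0.26, 0.0449) and 4 fell, led by Trf (0.77 ± 0.12, 0.000306) and Amn (0.42 ± 0.17, 0.0498). Without day 6 the fall of Cubn per day was not called, which left 3. Of the secreted products in the list, Ttr had at most 3 reads in any of the 12 libraries, Alb 4, Apoa4 5 and Apoa1 21. The highest library held 96 reads for Apob and for Rbp4, 110 for Apoa2, 270 for Trf and 406 for Apom, so these were read while Ttr, Alb and Apoa4 were at or near 0.

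Of the primitive and parietal endoderm list 1 of 11 tested genes fell with knockdown and 0 rose (median 0.11), beside 11.6% of genes past the filter. Col4a1, a basement membrane collagen chain, fell by 0.55 ± 0.13 (SE; limma, adjusted p = 0.0206), a call lost without day 6. Pth1r, a hormone receptor of parietal endoderm, rose in the comparison of Smarcc1.6 with Nons by 0.71 ± 0.19 (adjusted p = 0.0440). Per day 5 of 11 rose, the largest rises being Col4a2 (0.98 ± 0.23, adjusted p = 0.00367) and Plat (0.76 ± 0.09, 4.38e-05), and 0 fell, beside 60.5% of genes past the filter. Without day 6 Pth1r and Lama1 were called as well, 7 of 11 in all. In the comparison of Smarcc1.7 with Nons, 0 genes of the 4 endoderm lists were called by limma, beside 2.45% of genes past the filter.

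**Figure D3:**
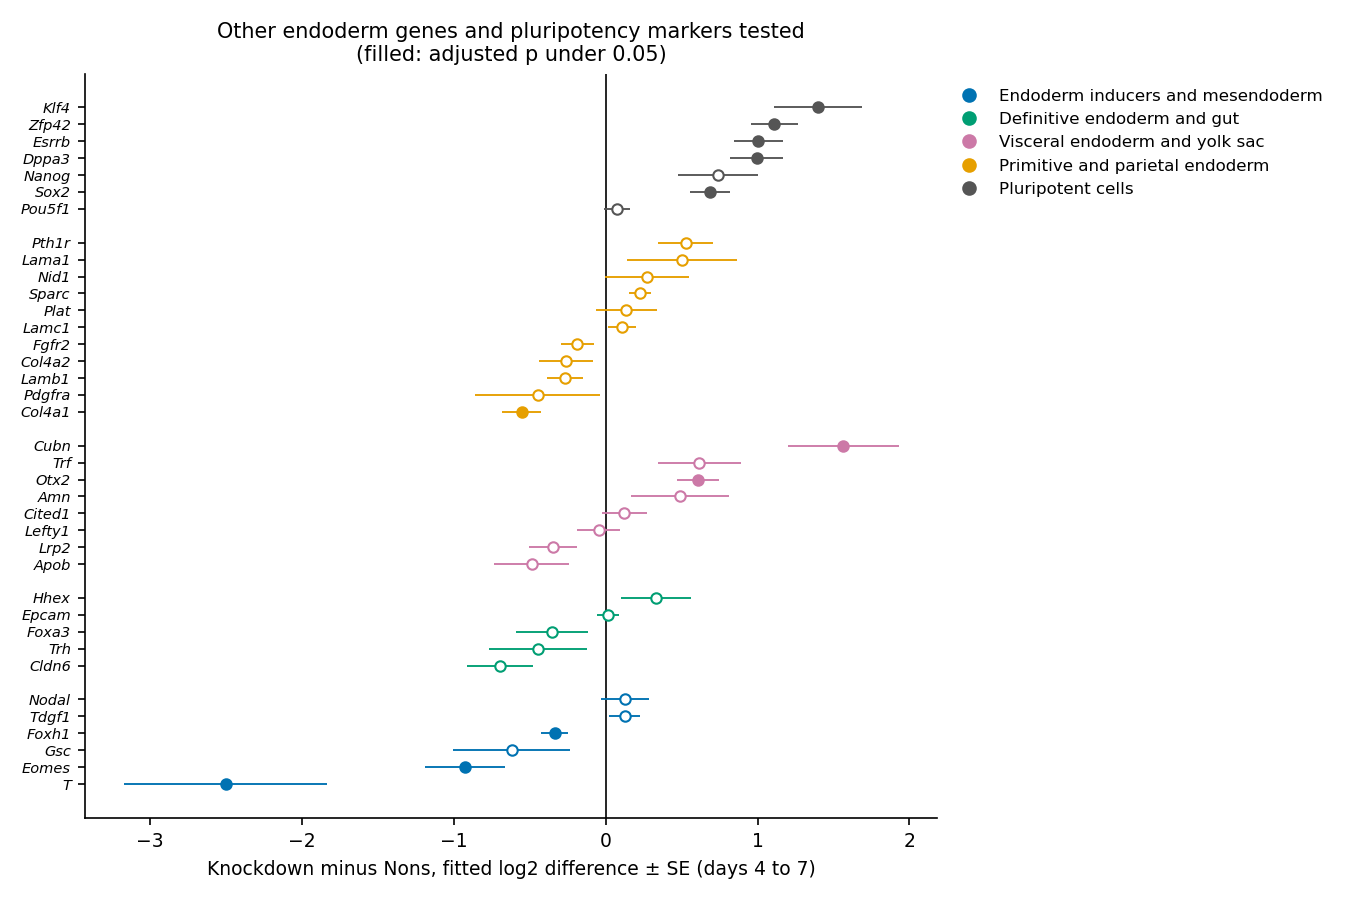
Fitted knockdown difference in log2 units ± SE (horizontal axis) for each tested gene of the endoderm lists and the pluripotency markers, filled where the adjusted p was under 0.05. T stands furthest to the left at -2.50, and the filled points to the right are Cubn, Otx2 and 5 pluripotency markers.

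Markers of other cells moved in the same libraries. The 7 pluripotency markers summed to 4325 CPM in Day0, 1089 to 1740 in Nons, 1368 to 2537 with Smarcc1.6 and 1097 to 2108 with Smarcc1.7. Most reads in this sum were of Pou5f1, with 552258 over the 12 libraries against 109625 for Nanog, the next. Pou5f1 was not called with knockdown (0.07 ± 0.08 SE, limma, adjusted p = 0.604). The sum was above Nons in 7 of 8 same-day pairs, and 5 of 7 genes rose with knockdown, led by Klf4 (1.40 ± 0.29 SE, limma, adjusted p = 0.0128), Zfp42 (1.11 ± 0.15, 0.00250) and Esrrb (1.00 ± 0.16, 0.00475), which were also called without day 6. The 6 primitive streak and early mesoderm markers, of which T and Mixl1 are also in the mesendoderm list, summed to 8.57 CPM in Day0 and to 8.17, 10.5, 41.6 and 238 CPM in Nons on days 4 to 7. With Smarcc1.6 they summed to 17.5, 5.08, 3.41 and 25.9 CPM and with Smarcc1.7 to 12.9, 4.86, 2.36 and 5.79, below Nons in 6 of 8 pairs. The Nons sum of day 7 was largely T, with 5334 reads there, while no other gene of the list passed 980 in any of the 12 libraries. In this list 1 of 2 tested genes fell (T), beside 11.6% of genes past the filter called with knockdown. Msgn1 had 0 reads in 8 of the 12 libraries, Mesp1 in 3 and Tbx6 in 1. The part of these markers in the results for Sox17, Foxa2, Hnf4a and Cxcr4 was not tested.

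**Figure D4:**
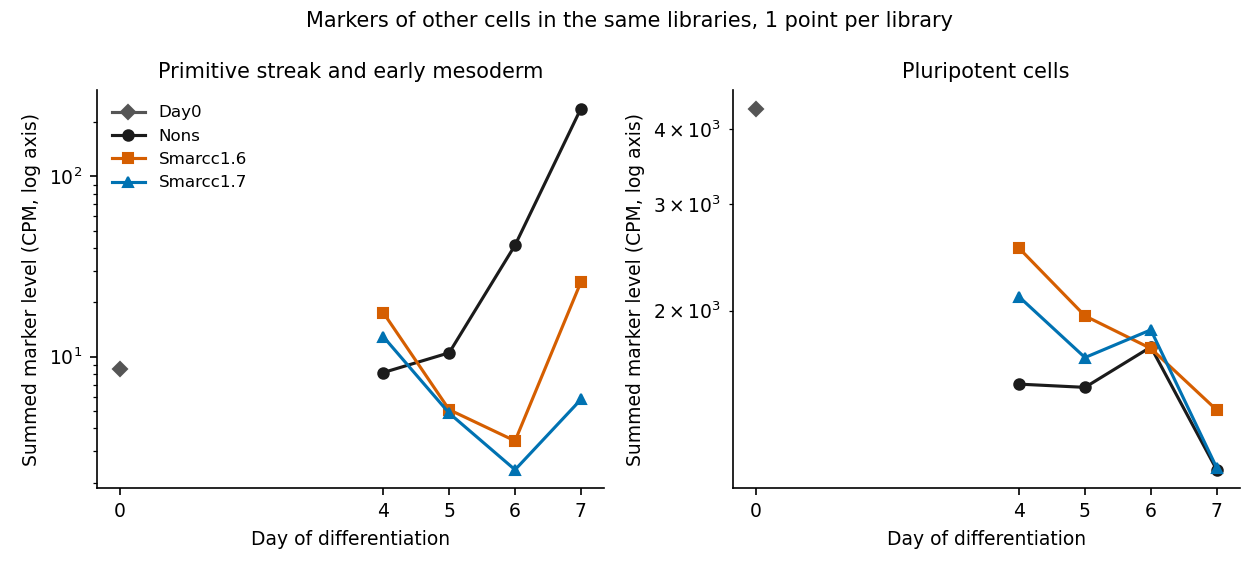
Summed CPM (vertical log axis) of the primitive streak and early mesoderm markers (left) and the pluripotency markers (right) by day, with 1 point per library and no error bars. The streak sum reaches 238 CPM in Nons on day 7 against 25.9 and 5.79 with the hairpins, and the pluripotency sum is 4325 CPM in Day0 and at most 2537 CPM in the later libraries.

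The remaining marker lists stand beside the 11.6% of genes past the filter that were called with knockdown. Of endothelial and blood genes 2 of 6 tested rose, Pecam1 by 1.18 ± 0.22 (SE; limma, adjusted p = 0.00855) and Sox18 by 1.18 ± 0.35 (0.0486), and Sox7 is shared with that lineage. Only 3 of these 6 had a difference above 0 (median -0.04), so the list did not rise as a whole. Of neural genes 2 of 4 rose, Sox1 by 2.07 ± 0.61 (0.0478) and Tubb3 by 0.72 ± 0.19 (0.0318), with 3 of 4 differences above 0 (median 0.46). Of fibroblast and smooth muscle genes 2 of 6 rose, Col1a2 by 2.82 ± 0.25 (0.000923) and Thy1 by 0.83 ± 0.20 (0.0240), with 4 of 6 differences above 0 (median 0.22). Without day 6 Tubb3 and Col1a2 were still called. Cardiac mesoderm genes gave 0 of 2, and the trophoblast list gave 1 of 5, Eomes, which is also in the mesendoderm list.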

How the data were processed

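Total RNA of 13 libraries was analysed. The authors made TruSeq RNA libraries, trimmed the reads, aligned them with TopHat2 2.0.12 (per the labels, while the paper's methods give tophat and hisat2 as options and do not tie them to libraries) to mm10 with strain differences masked, and counted reads per gene in Seqmonk. Log2 CPM values, relative to all mapped reads and with both alleles together, were deposited by the authors. The use of strand in counting is not given in the sources used here, so reads of Hnf4a and its antisense gene Hnf4aos, for example, cannot be told apart.

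The values fell on steps of whole reads (100% of low values within 0.02 reads), from which depth and reads were recovered, and 0 reads had been given the value of 0.9 reads. Linear models (limma 3.58.1 under R 4.3.3, lmFit and eBayes with a trend) were fitted to these values over genes that averaged a log2 CPM of 0 or more in the 12 libraries, with Benjamini-Hochberg adjustment over all genes tested and a threshold of 0.05. For knockdown and for each hairpin against Nons the model held a term for each day. Both hairpins were fitted together in a model of 3 groups on all 12 libraries, which share 1 estimate of the spread. For the change per day it held a term for each group and day as a number, with no term for each day. The interaction was knockdown times day. Day0 entered no test. Libraries of a day were matched by day, not by a replicate number. Counting intervals (95%, exact Clopper-Pearson) and floors of 3 reads cover counting error only. Alternatives were other filters, scalings, weights, depths and left-out libraries. The steps of the knockdown fit were run on simulated counts of genes past the filter, with no differences between days or hairpins. That run does not cover the unfiltered fit or the use of days as replicates.

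The members and gene lists were chosen with earlier results of these data known. Named were all members, Smarcc1, per list at most the 3 largest rises and falls past the threshold for knockdown or a hairpin and the 2 largest per day, and the 3 genes most like each filtered member. Values named for Tbx6, Msgn1, Mesp1, Ttr, Alb and Apoa4 were chosen after their values were seen. The same holds for Apoa1, Apoa2, Apob, Apom, Rbp4, Lama1, Pou5f1 and Nanog. Per-day changes of the marker lists of other cells were not reported. Promoter sequences matched 5 of 9 members in RefSeq; Sox17, Gata4, Sox7 and Gata6 were not matched. Allele-specific values were not analysed here.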

Additional observations from a re-analysis of the deposited data

Results flagged for a closer look

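Afp in the Smarcc1.6 library of day 7, at a log2 CPM of -4.29 (3 reads), lay far below the other 3 Smarcc1.6 libraries, which were between -1.53 and -1.22. Its gap to the nearest took up 0.899 of the group's range. Of 27 member and group sets examined this was 1, and chance gives about 1.35.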

How the results depend on the processing

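Of 846 alternative values for 34 results, 717 kept their direction and side of the threshold (for counts, stayed within 1.5 times), 55 counts moved further, 31 values reversed, 10 became significant and 33 lost significance. The number of members called with knockdown (1 as reported) was 3 with no filter on low values, 2 with no filter and voom weights, and 0 with voom weights, thinned reads, no day block, Smarcc1.6 or Smarcc1.7 with Nons only, no filter and log2(CPM + 1), or without day 6 and Smarcc1.7 day 5. For Smarcc1.6 (1 as reported) it was 2 with no filter, with or without voom weights, and 0 with voom weights, thinned reads, no day block, no filter and log2(CPM + 1), or without day 6 and Smarcc1.7 day 5. For Smarcc1.7 (0 as reported) it was 2 with no filter and 1 with no filter and voom weights. Per day (3 as reported) it was 5 with no filter, alone or with log2(CPM + 1), and 6 with no filter and voom weights. For the interaction (0 as reported) it was 1 with log2(CPM + 1), voom weights alone or without the filter, or without day 6 and Smarcc1.7 day 5. The cause was not tested. A minimum mean log2 CPM of 2 left Dab2 as the one member tested, so its counts (0 for knockdown and Smarcc1.6, 1 per day) say nothing of the others. The fall of Afp per day was not called with thinned reads (adjusted p = 0.216).

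Values that reversed were the knockdown difference of Gata6 with Smarcc1.7 only (-0.0749), that of Afp with thinned reads (-0.0635), with Smarcc1.7 only (-0.129) and without day 6 and Smarcc1.7 day 5 (-0.555), and the interactions of Sox17 with thinned reads (-0.349), Hnf4a with log2(CPM + 1) (-0.241) and Afp without day 6 and Smarcc1.7 day 5 (-0.0416). With 1 library or day left out, members called ran from 0 to 1 for knockdown, Smarcc1.6 and the interaction and from 1 to 4 per day. In the same fits the knockdown difference ran from -0.443 to 1.04 for Afp, -1.34 to 0.0142 for Cxcr4 and -0.0203 to 0.785 for Gata6. The interaction ran from -1.14 to 2.23 for Afp, -0.662 to 0.151 for Gata4, -1.14 to 0.472 for Gata6, -0.938 to 0.701 for Hnf4a and -0.513 to 0.603 for Sox17, and the change per day from -0.361 to 1.11 for Foxa2, -0.539 to 0.773 for Gata6 and -1.11 to 0.434 for Sox7. Depth limits the members most in Smarcc1.7 day 5, where 3 reads are a log2 CPM of -2.22, against -4.40 in the deepest library. The day term matches the libraries of a day across groups. Without it 4 of 13406 genes were called with knockdown in place of 1561. This count was 57 with Smarcc1.6 and Nons only, 0 by limma with Smarcc1.7 and Nons only (2363 at an unadjusted p under 0.05), 108 without day 6 and Smarcc1.7 day 5, and from 287 (without day 6) to 2003 with 1 library or day left out. The settings without day 6 and Smarcc1.7 day 5, and those that combine no filter with another setting, were chosen after seeing the data.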
